A study of Mus musculus with 12 samples.

Results

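The T-box genes described here are *Tbx1*, *Tbx2*, *Tbx3*, *Tbx4*, *Tbx5*, *Tbx15*, *Tbx18* and *Tbx20*, which act in heart, pharynx, limb or skeleton. They are part of the T-box family, without *T*, *Eomes* and other genes given further below, and were chosen with earlier results of these data known. These members are 8 of 16432 genes tested and are read by 18 of 45037 probe sets on Affymetrix mouse arrays. RNA came from embryonic stem cells (ESCs) of the genotype Ring1A-/-; Ring1B fl/fl; R26::CreERT2, in which 4-hydroxytamoxifen (OHT) activates a CreERT2 fusion, expressed from the Rosa26 locus, that deletes *Ring1B*. All 6 lines are thus labelled as lacking Ring1A, before OHT as well as after. The lines were stable transfectants of this genotype: 1 with empty vector (mock), 2 with 3xFlag-tagged WT Ring1B (WT #1 and #3), 2 with the I53S mutant (I53S #1 and #4) and 1 with the I53A mutant (I53A #1). I53S and I53A alter the surface of Ring1B that binds the E2 enzyme, and both are described as defective in H2A ubiquitination; these are the 3 mutant lines below. Each line gave 1 array without OHT (OHT-) and 1 array on day 2 after 800 nM OHT for 24 h (OHT+), so that n is the number of lines and 12 arrays were used. After OHT the mock line should have neither Ring1 protein, and in every other line the construct is the only source of Ring1B. Each line is 1 transfectant culture, and p-values rest on the spread between lines of the same class. The mock class is 1 line and adds nothing to that spread. Its p-values therefore use the spread of the WT and mutant lines and assume that mock varies like them.

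T-box proteins bind DNA through a conserved T-box domain and act as activators or repressors that set regional identity in the embryo. By sequence, *Tbx1*, *Tbx15*, *Tbx18* and *Tbx20* belong to the Tbx1 subfamily, and *Tbx2*, *Tbx3*, *Tbx4* and *Tbx5* belong to the Tbx2 subfamily, whose genes lie as the neighbouring pairs *Tbx2* and *Tbx4*, and *Tbx3* and *Tbx5*. Polycomb repressive complex 1 (PRC1), of which Ring1A and Ring1B are the E3 ligases for H2A lysine ubiquitination, occupies CpG-rich promoters of many developmental regulators in ESCs, and T-box genes are well-known examples of such targets.

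*Tbx1*, *Tbx4*, *Tbx18* and *Tbx20* rose on day 2 of OHT in the lines with catalytically defective Ring1B, and *Tbx1*, *Tbx18* and *Tbx20* also rose in mock. No member was called in the lines with WT Ring1B, nor was any other gene. *Tbx1*, *Tbx4* and *Tbx20* were nonetheless higher there with OHT, by 0.55, 0.62 and 0.53 log2 units on average. The difference between mutant and WT lines passed adjustment for 0 members and for 0 of all genes. *Tbx1* had the largest estimated rise of the 16432 genes in the mutant lines, 6.51-fold, from untreated signals of 3.91 to 4.55 that lay close to the filter on low signals (3.94). *Tbx2*, which stayed near or under the filter on low signals, and *Tbx5* were called in no comparison, and *Tbx3*, which was bright in every line before OHT, was also not called.

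Promoters are shown for the 4 members that rose, which are also the only members for which the reference used gave a promoter. CpG counts are given because PRC1 occupies CpG-rich promoters of many developmental regulators. With no uncalled member to compare, whether CpG content goes with the rise was not tested. They were taken from RefSeq on build GRCm38.p6, 250 bases before to 50 bases after each transcription start, 5′ to 3′ on the gene's strand, with CG dinucleotides in capitals. The table used gives 2 starts for *Tbx1*, and it holds 4 of the 8 members.
Tbx1 chr16:18588850-18589149 (minus strand): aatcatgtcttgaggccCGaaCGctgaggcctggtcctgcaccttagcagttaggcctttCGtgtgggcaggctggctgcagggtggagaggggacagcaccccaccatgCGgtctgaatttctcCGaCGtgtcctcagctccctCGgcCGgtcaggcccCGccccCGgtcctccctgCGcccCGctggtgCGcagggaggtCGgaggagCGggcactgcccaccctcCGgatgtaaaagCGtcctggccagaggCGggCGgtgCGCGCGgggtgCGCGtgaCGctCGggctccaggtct
Tbx1 chr16:18590622-18590921 (minus strand): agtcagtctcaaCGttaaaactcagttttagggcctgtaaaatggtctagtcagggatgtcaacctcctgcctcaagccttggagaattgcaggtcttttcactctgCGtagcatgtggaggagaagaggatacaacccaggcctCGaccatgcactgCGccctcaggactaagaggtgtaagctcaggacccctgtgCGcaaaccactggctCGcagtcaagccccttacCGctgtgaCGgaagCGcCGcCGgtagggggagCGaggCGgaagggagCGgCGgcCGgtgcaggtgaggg
Tbx4 chr11:85896515-85896814 (plus strand): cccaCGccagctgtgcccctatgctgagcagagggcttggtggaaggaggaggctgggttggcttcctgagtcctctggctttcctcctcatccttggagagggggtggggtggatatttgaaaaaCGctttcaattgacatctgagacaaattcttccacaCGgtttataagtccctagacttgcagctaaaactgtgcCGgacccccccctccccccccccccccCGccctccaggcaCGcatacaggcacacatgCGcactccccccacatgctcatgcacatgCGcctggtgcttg
Tbx18 chr9:87731211-87731510 (minus strand): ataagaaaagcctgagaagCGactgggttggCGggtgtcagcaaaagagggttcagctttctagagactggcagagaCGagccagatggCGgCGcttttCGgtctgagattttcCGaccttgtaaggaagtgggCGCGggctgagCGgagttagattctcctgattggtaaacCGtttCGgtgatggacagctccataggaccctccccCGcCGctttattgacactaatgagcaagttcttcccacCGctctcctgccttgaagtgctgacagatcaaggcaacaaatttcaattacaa
Tbx20 chr9:24774254-24774553 (minus strand): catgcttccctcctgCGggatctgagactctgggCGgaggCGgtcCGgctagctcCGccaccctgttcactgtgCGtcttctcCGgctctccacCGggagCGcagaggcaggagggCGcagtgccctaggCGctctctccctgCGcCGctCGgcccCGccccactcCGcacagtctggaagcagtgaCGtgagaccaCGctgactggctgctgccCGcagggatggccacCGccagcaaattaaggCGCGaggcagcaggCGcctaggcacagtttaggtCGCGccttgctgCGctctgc
The *Tbx1* window at chr16:18588850-18589149 and the *Tbx20* window each held 26 CG dinucleotides, more than 83.1% of the 32851 mouse promoter windows of the same length held. The other *Tbx1* window had 16 (more than in 67.0% of windows) and the *Tbx18* window had 15 (more than in 65.4%). *Tbx4* stood apart with 8, close to the median of 7 over all windows. The upper quartile over all windows was 20, so the other *Tbx1* window and those of *Tbx18* and *Tbx4* lay under it. GC content ran from 51.7% in *Tbx18* to 69.0% in the first *Tbx1* window, and the observed over expected CpG ratio was 0.729, 0.633, 0.755 and 0.745 for the 2 *Tbx1* windows, *Tbx18* and *Tbx20*, against 0.314 for *Tbx4*. A T-box half-site (GGTGTGA) and an E-box (CACGTG), searched on both strands, were found in none of the 5 windows, and are held by 3.98% and 7.15% of all windows. The letters TATAAA occurred once, on the minus strand of the *Tbx4* window from position 166, and 13.6% of all windows hold them. These are letter matches in these windows, not binding sites.

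All signals below are log2 values after quantile normalization, and probe sets of a gene were averaged where they passed the filter, a highest signal above 3.94. Differences are OHT+ minus OHT- within a line.

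**Figure D1:**
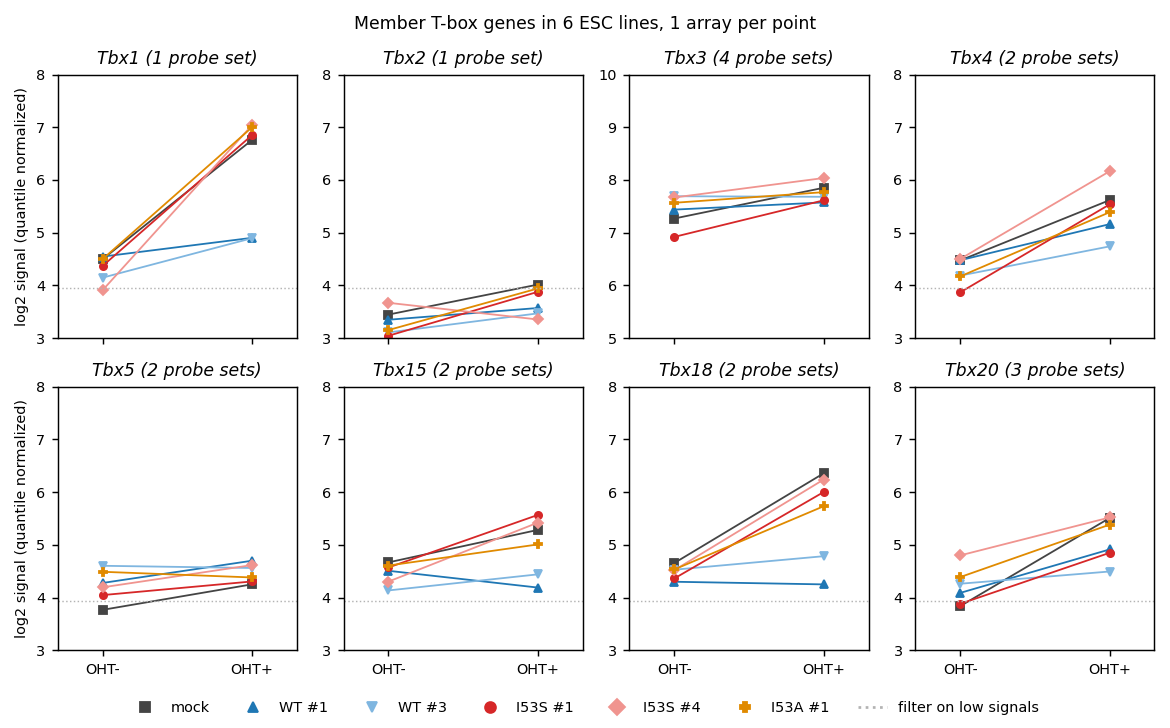
Log2 signal (quantile normalized) of each T-box gene without OHT and on day 2 of OHT, 1 panel per gene and 1 line per ESC line, with the filter on low signals dotted; all panels span the same number of log2 units, with *Tbx3* set higher on the axis. For *Tbx1* the mutant and mock lines ended between 6.76 and 7.04 and the WT lines at 4.90.

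*Tbx1*, which controls growth of the pharyngeal apparatus and the cardiac outflow tract, was read by 1 probe set. Without OHT its signal was 4.50 in mock cells, 4.55 and 4.15 in WT #1 and #3, 4.37 and 3.91 in I53S #1 and #4, and 4.50 in I53A #1. With OHT it was 6.76 in mock cells, 4.90 in both WT lines, 6.85 and 7.04 in the I53S lines and 6.999 in the I53A line. The lines overlapped before OHT, and afterwards every mutant line and the mock line lay above both WT lines. The difference was 2.70 in the mutant lines (SE 0.16, n = 3, limma adjusted p = 0.00537) and 2.26 in mock cells (SE 0.28, limma adjusted p = 0.0366). The WT lines gave 0.36 and 0.75, an average of 0.55 with a 95% interval of 0.06 to 1.05 (limma adjusted p = 0.618). *Tbx1* was thus also above its starting signal in both WT lines, by less than in any mutant line.

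*Tbx18*, a regulator of the epicardium, the sinus node and somite compartments, was called on both of its probe sets in the mutant lines. Averaged over them, the signal without OHT lay between 4.30 and 4.66 in the 6 lines. With OHT it was 6.36 in mock cells, 4.25 and 4.79 in WT #1 and #3, 6.003 and 6.24 in the I53S lines and 5.73 in the I53A line. The WT lines ended within about the spread of the untreated lines, and the other 4 lines lay above all untreated arrays. The difference was 1.52 in the mutant lines (SE 0.14, limma adjusted p = 0.00705), 1.70 in mock cells (SE 0.23, adjusted p = 0.0414) and 0.10 in the WT lines (95% interval -0.31 to 0.51). Fitted alone, 1429974_at gave 1.58 and 1449871_at gave 1.46 in the mutant lines, with limma adjusted p-values of 0.0254 and 0.0185 over all probe sets. 1449871_at was above the filter on 5 of 12 arrays, all of them OHT+, and read 3.52 to 3.84 without OHT, so that it passed the filter only through arrays where it was high and its change is measured from a signal under the filter. In mock cells the second probe set moved by 2.32 and the first by 1.09, so the size of the mock value depended on the probe set.

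*Tbx4*, which acts in hindlimb, allantois and lung mesenchyme, had a probe set that moved strongly and one near the filter. On 1456033_at the signals without OHT were 5.04 in mock cells, 4.48 and 4.56 in the WT lines, 3.95 and 5.46 in I53S #1 and #4, and 4.08 in I53A #1. With OHT they were 7.22 in mock cells, 6.04 and 5.37 in the WT lines, 6.84 and 7.19 in the I53S lines, and 6.91 in the I53A line. The signal was higher with OHT in all 6 lines, and the WT lines ended lowest. The other probe set, 1426321_at, was above the filter on 7 of 12 arrays and changed by -0.39 to 1.60 between lines. For the gene the difference was 1.52 in the mutant lines (SE 0.12, limma adjusted p = 0.00617) and 1.14 in mock cells (SE 0.21, adjusted p = 0.0678, not called). In WT #1 and #3 it was 0.68 and 0.55, averaging 0.62 with a 95% interval of 0.25 to 0.99 (limma adjusted p = 0.528). The gene SE of 0.12 in the mutant lines was smaller than those of 1456033_at (0.28) and 1426321_at (0.37). Of the mutant lines, I53S #4 changed least on the former and most on the latter. On 1456033_at alone the difference was 2.48 in the mutant lines (limma adjusted p = 0.0227) and 1.19 in the WT lines. Mutant minus WT on it was 1.29 (limma adjusted p = 0.401).

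*Tbx20*, a cardiac factor needed for chamber growth, was read by 3 probe sets, of which 1453351_at carried the change. Its signals without OHT were 3.90 in mock cells, 5.10 and 5.87 in the WT lines, 3.69 and 6.24 in I53S #1 and #4, and 5.37 in I53A #1. With OHT they were 6.88 in mock cells, 5.87 and 6.07 in the WT lines, 7.06 and 8.03 in the I53S lines and 7.25 in the I53A line. Before OHT the lines were spread from 3.69 to 6.24, with the I53S lines at both ends, and the mock line and I53S #1, which started lowest, had the largest differences (2.97 and 3.37). After OHT the mock and mutant lines were all above the WT lines. The other probe sets, 1422219_a_at (3.37 to 4.995) and 1425158_at (3.54 to 4.71), lay near the filter, and the WT #1 change of 1.31 on the former was larger than that of any mutant line. For the gene the difference was 0.89 in the mutant lines (SE 0.14, limma adjusted p = 0.0236), 1.67 in mock cells (SE 0.24, adjusted p = 0.0430), and 0.82 and 0.23 in WT #1 and #3 (limma adjusted p = 0.579). The mutant and WT lines overlapped for the gene average, while on 1453351_at all mutant lines (1.79 to 3.37) lay above both WT lines (0.78 and 0.20). On this probe set alone the mutant difference was 2.35 (SE 0.33, limma adjusted p = 0.0355). I53S #1, the highest mutant line on it, was the lowest on 1422219_a_at (-0.60), and the gene SE of 0.14 does not show that spread.

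*Tbx15*, which shapes the skeleton and dermis, was not called as a gene: the difference in the mutant lines was 0.84 (SE 0.19, limma adjusted p = 0.0598), with 1.00 and 1.12 in the I53S lines and 0.40 in the I53A line. It was called under 4 of the 14 alternatives, for example with the brightest probe set in place of the average (1.40, limma adjusted p = 0.00661). Its probe sets did not move together. On 1418755_at, above the filter on all 12 arrays, the signal without OHT lay between 4.66 and 5.51. With OHT it was 6.63 in mock cells, 4.73 and 5.30 in the WT lines, 6.80 and 6.60 in the I53S lines and 6.42 in the I53A line. The mock and mutant lines lay above every other array for this probe set, and it was called in the mutant lines at 1.40 (SE 0.11, limma adjusted p = 0.0163 over all probe sets). The mock line changed by 1.68 and the WT lines by 0.07 and 0.34. The other probe set, 1422195_s_at, was above the filter on 5 of 12 arrays and changed by -0.71 to 0.79. Both I53S lines were highest (0.70 and 0.79), while I53A #1 (-0.66) and mock (-0.44) lay between WT #1 (-0.71) and WT #3 (0.27).

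*Tbx3* is a transcriptional repressor of limb, heart and mammary development that is also expressed in self-renewing ESCs. Of its 5 probe sets, 1448029_at (9.45 to 10.90) and 1437479_x_at (8.95 to 10.56) were bright on all arrays, 1445757_at lay between 5.29 and 6.59, 1439567_at was near the filter, and 1444594_at was under it on all 12 arrays and was left out of the average. On 1448029_at the signal without OHT was 9.83 in mock cells, 10.14 and 10.20 in the WT lines, 9.45 and 10.40 in I53S #1 and #4 and 10.17 in I53A #1. With OHT it was 10.53 in mock cells, 10.53 and 10.79 in the WT lines, 10.31 and 10.90 in the I53S lines and 10.78 in the I53A line. Signals were higher with OHT in every line on both bright probe sets, WT lines included. On 1448029_at the average difference was 0.66 in the mutant lines (SE 0.12, limma adjusted p = 0.0582) and 0.49 in the WT lines, and on 1437479_x_at it was 0.69 (SE 0.13, adjusted p = 0.0638) and 0.37. Averaged over the gene, the difference was 0.42 in the mutant lines (limma adjusted p = 0.105), 0.58 in mock cells and 0.06 in the WT lines. With the brightest probe set in place of the average it was called in the mutant lines (limma adjusted p = 0.0286).

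*Tbx2*, a repressor related to *Tbx3*, was above the filter on 1 of 12 arrays, with signals between 3.05 and 4.02. *Tbx5*, which specifies the forelimb and the cardiac chambers, had 1425695_at between 4.33 and 5.46 and 1425694_at between 3.20 and 4.25. *Tbx2* and 1425694_at were thus read near or under the filter, whereas 1425695_at was above it on all 12 arrays. For *Tbx2* the difference was 0.44 in the mutant lines (95% interval -0.15 to 1.02), with I53S #4 at -0.32 and the other mutant lines at 0.83 and 0.79. Averaged over both probe sets, *Tbx5* differed by 0.19 in the mutant lines (95% interval -0.17 to 0.55), the same as the 0.19 of the WT lines. On 1425695_at alone it differed by 0.45 in the mutant lines (95% interval 0.08 to 0.81, limma adjusted p = 0.178). The change there was 0.77 in mock cells and 0.16 in the WT lines, and mutant minus WT was 0.29 (95% interval -0.28 to 0.86). On 1425694_at the mutant, mock and WT changes were -0.06, 0.20 and 0.22. The gene intervals allow changes of up to 1.02 and 0.55 log2 units, and that of 1425695_at up to 0.81.

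**Figure D2:**
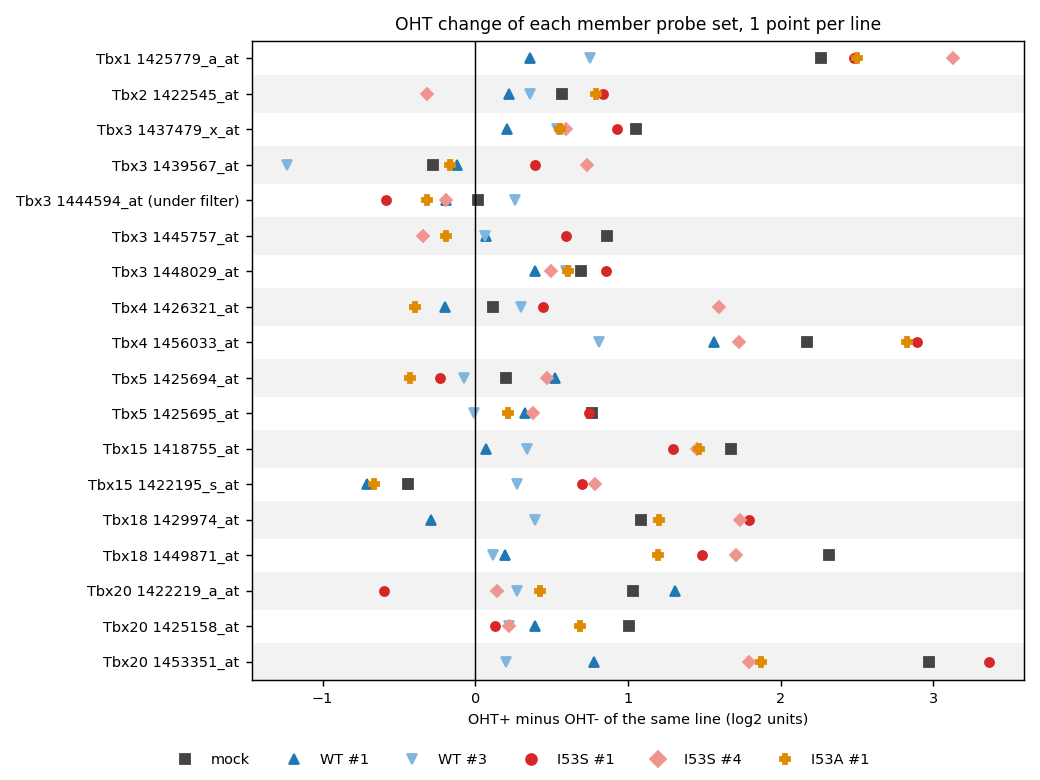
OHT+ minus OHT- (log2 units) for each of the 18 T-box probe sets, with 1 point per line. *Tbx1*, *Tbx3* 1437479_x_at, *Tbx4* 1456033_at, *Tbx15* 1418755_at, both *Tbx18* probe sets and *Tbx20* 1453351_at have the mock line and all mutant lines to the right of both WT lines, while other probe sets of the same genes do not.

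Counted as genes, 4 of 8 members were called higher and 0 lower in the mutant lines, where 4.91% of all genes were called higher and 1.55% lower. The members were chosen with earlier results of these data known, so these counts and those of the other lists are descriptions. Mock cells had 3 of 8 called higher and 0 lower, against 1.29% and 0.383% of all genes. With values as deposited, without further normalization, the calls over all genes in the mutant lines split into 540 higher and 571 lower in place of 807 and 255, and those in mock cells into 175 and 747 in place of 212 and 63. In the WT lines limma called 0 members and 0 of all genes. At an unadjusted p under 0.05 the WT lines had 3 members (*Tbx1*, *Tbx4* and *Tbx20*, all higher), beside 7.61% of all genes in either direction. Over the 8 members the median difference was 0.87 in the mutant lines, 0.88 in mock cells and 0.24 in the WT lines, and all genes had medians of -0.01, 0.00 and 0.00. In each mutant line alone the median over the members was between 0.89 and 0.98, and in the WT lines it was 0.29 and 0.28. Counted as probe sets, 6 of the 17 that passed the filter were called higher in the mutant lines (*Tbx1*, *Tbx4* 1456033_at, *Tbx15* 1418755_at, both of *Tbx18* and *Tbx20* 1453351_at), beside 2% of all probe sets, and none was called in mock cells, where no probe set of the array was called.

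The number of calls depended on the lines in the fit, for the members and for all genes. Without any single line other than the mock line itself, the mock count fell from 3 to 0, and that over all genes also fell to 0, with the same estimates (*Tbx1* 2.26, with a limma adjusted p of up to 0.0756). In the mutant lines *Tbx1* and *Tbx4* were called under all 14 alternatives, *Tbx18* under 13 and *Tbx20* under 8, and without I53S #1 the count of members fell from 4 to 2 (*Tbx18* 1.46, limma adjusted p = 0.0524; *Tbx20* 0.86, adjusted p = 0.123), while the calls over all genes fell from 807 higher and 255 lower to 145 and 16. Without I53S #4 or without I53A #1 *Tbx20* was lost as well, with estimates of 0.98 and 0.84 (limma adjusted p = 0.0856 and 0.116) beside 168 and 144 genes called higher, and without any single mutant line the count of probe sets fell from 6 to 0.

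**Figure D3:**
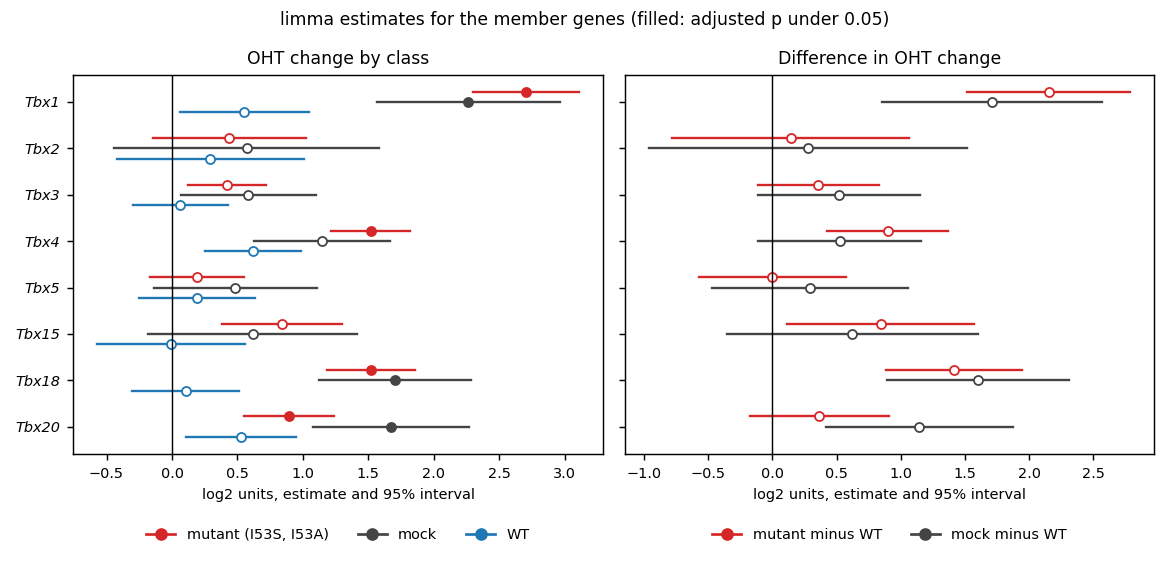
limma estimates with 95% intervals for each gene. The left panel gives the OHT change in the mutant, mock and WT lines and the right panel the difference in that change between classes, with filled points for an adjusted p under 0.05. The intervals of the mutant minus WT difference lie above 0 for *Tbx1*, *Tbx4*, *Tbx15* and *Tbx18*, although no difference passed the adjusted threshold.

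The difference between mutant and WT lines was then tested itself. It was 2.15 for *Tbx1* (SE 0.26, limma adjusted p = 0.0943), 1.42 for *Tbx18* (SE 0.21, adjusted p = 0.117), 0.90 for *Tbx4* (SE 0.19, adjusted p = 0.182) and 0.85 for *Tbx15* (SE 0.29, adjusted p = 0.342). None passed, nor did any of the 16432 genes; 12.6% of all genes had an unadjusted limma p under 0.05, as did these 4 members. For *Tbx20*, *Tbx3*, *Tbx2* and *Tbx5* the differences were 0.37, 0.36, 0.14 and 0.00, with 95% intervals of -0.18 to 0.91, -0.11 to 0.83, -0.78 to 1.07 and -0.57 to 0.57. A difference from the WT lines was thus seen for *Tbx1* and *Tbx18* in every mutant line, but it did not pass adjustment, and for *Tbx20* as a gene the mutant and WT lines overlapped. The *Tbx20* difference of 0.37 was 0.069 without WT #3 and 0.66 without WT #1, and it was 1.86 with the brightest probe set (limma adjusted p = 0.253). In 5 of 8 members (*Tbx1*, *Tbx3*, *Tbx4*, *Tbx15* and *Tbx18*) every mutant line changed by more than both WT lines, against 16.1% of all genes. Under trended and robust priors 2 members were called for this difference (*Tbx1*, limma adjusted p = 0.00466, and *Tbx18*, adjusted p = 0.0329), as were 194 genes higher and 78 lower in all. With the filter raised to the median signal, which left 6 members, *Tbx1* (adjusted p = 0.0374) and *Tbx15* (adjusted p = 0.0388) were called, among 42 genes higher and 5 lower.

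Mock minus WT was largest for *Tbx1* (1.71, SE 0.35, limma adjusted p = 0.161), *Tbx18* (1.60, SE 0.29, adjusted p = 0.144) and *Tbx20* (1.14, SE 0.30, adjusted p = 0.209), and 0 members and 0 of all genes passed. Under trended and robust priors *Tbx1* (limma adjusted p = 0.0356) and *Tbx18* (adjusted p = 0.0490) did, among 276 genes higher and 177 lower. At an unadjusted p under 0.05, 14.4% of all genes differed between mock and WT lines. The mock line changed by more than both WT lines in 8 of 8 members, against 38% of all genes. Mock minus mutant asks whether the E2-binding mutants retained any restraint on these genes. It gave 0 calls among the members and among all genes, with 8.05% of all genes at an unadjusted p under 0.05, and *Tbx20* was the only member there (0.78, SE 0.28, limma adjusted p = 0.590). By probe set, mock minus mutant for *Tbx20* was 1.05 on 1422219_a_at and 0.66 on 1425158_at, both near the filter. It was 0.63 on 1453351_at, where I53S #1 changed by more than mock (3.37 against 2.97). For *Tbx1* mock minus mutant was -0.44, with a 95% interval of -1.25 to 0.36. These comparisons share their arrays with those above.

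Before OHT, when every line still had endogenous Ring1B, the mutant and WT lines differed by -0.20 to 0.18 over the 8 members, with limma adjusted p-values of 0.965 and above and 0 calls among all genes (5.25% at an unadjusted p under 0.05). With values as deposited, where the median of all genes was 0.28, 41 genes were called higher and 0 lower, and 0 members were among them. Levels before OHT varied most for *Tbx20* (SD 0.36 over 6 lines) and least for *Tbx18* (SD 0.13). The bright *Tbx3* probe set 1437479_x_at read 9.08 in mock cells and 8.95 in I53S #1 against 9.79 to 10.01 in the other 4 lines, and the same 2 lines were lowest on *Tbx20* 1453351_at. The lines were therefore not alike at the start for these 2 genes.

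Cells were maintained on irradiated embryonic fibroblasts or on gelatin, and embryonic fibroblasts can express several T-box genes. The 8 ESC markers, among them *Pou5f1* (12.34 to 12.87) and *Nanog* (12.36 to 12.72), were bright on all 12 arrays. The linear signal summed over 19 fibroblast markers went from 5011 to 7609 with OHT in mock cells, from 5090 to 8032 in I53S #1 and from 4461 to 5085 in I53S #4. It went from 2559 to 2659 in I53A #1, from 2705 to 2705 in WT #1 and from 2781 to 2973 in WT #3. Fibroblast markers were thus higher in the mock and I53S lines than in the WT lines already before OHT and were higher still with OHT in mock cells and in I53S #1, the 2 lines with the lowest *Tbx3* and *Tbx20* before OHT. *Lum* and *Fap* of that list were under the filter on all arrays, while *Col1a2* (8.12 to 10.50) and *Tagln* (9.49 to 11.99) were above it throughout. In the I53A line, with a fibroblast sum like that of the WT lines at both times, *Tbx1* changed by 2.50, *Tbx4* by 1.22, *Tbx18* by 1.20 and *Tbx20* by 0.99, and *Tbx15* 1418755_at by 1.46. Of the 17 fibroblast markers tested, 1 was called higher in the mutant lines (*Thy1*, 0.68, limma adjusted p = 0.0186), beside 4.91% of all genes. The median difference in these lines was 0.30, with 0.61 in I53S #1, 0.21 in I53S #4 and 0.14 in I53A #1. In mock cells all 17 markers were above 0, with a median of 0.64 and *Thy1* at 1.32. The median was 0.02 in each WT line. The part of fibroblasts in these values was not tested, and in bulk RNA fewer cells of a type and less RNA per cell cannot be told apart.

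*Ring1B* itself (*Rnf2*) did not show its deletion on the array. Its brightest probe set read 10.80 and 10.57 in mock cells without and with OHT, and 10.90 to 11.29 in the other lines over both. Transcripts that lack deleted exons, and in 5 lines the constructs, can still be read by such probe sets, and where these lie relative to the deleted part was not tested, so the labels could not be checked in this way. The probe set of *Ring1A* (*Ring1*) read 5.24 to 6.49 and was above the filter on all 12 arrays, although every line is labelled Ring1A-/-; whether it lies outside the deleted part was not tested either.

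Of the other T-box genes, *T* and *Tbx10* had no probe set of 1 symbol and *Tbr1* and *Tbx22* did not pass the filter. Of the 5 measured, 1 was called in the mutant lines, where 4.91% of all genes were called higher and 1.55% lower. This gene, *Eomes*, directs mesendoderm and trophoblast fate. It rose by 0.82 (SE 0.10, limma adjusted p = 0.0144), with -0.41 and -0.07 in the WT lines and 0.78 in mock cells. *Tbx21*, the T-helper cell regulator, differed by 1.05 in the mutant lines (limma adjusted p = 0.179), and by -0.85 and 1.25 in WT #1 and #3. *Tbx6*, *Tbx19* and *Mga* had differences of 0.04, 0.15 and -0.31 that did not pass. The median over the 5 was 0.15 in the mutant lines and -0.40 in mock cells.

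**Figure D4:**
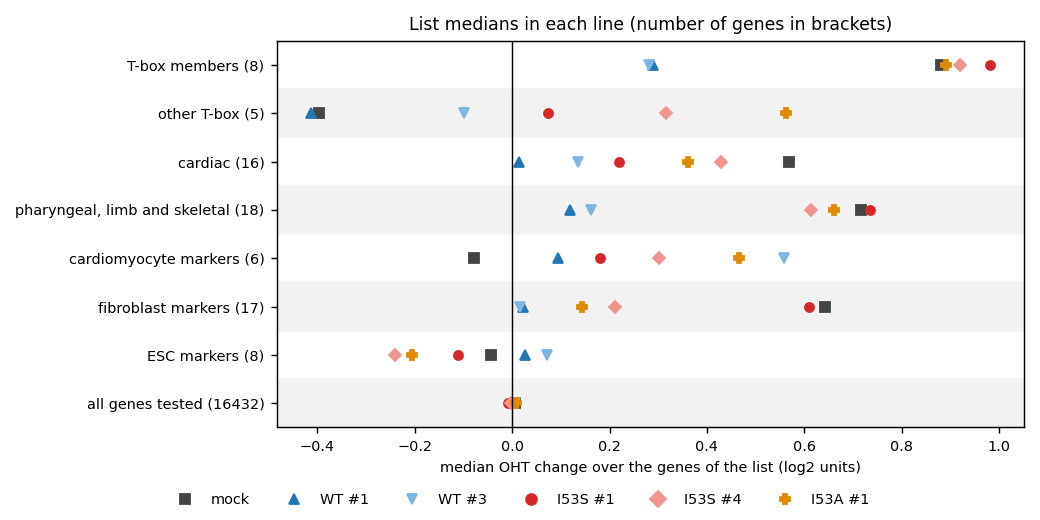
Median OHT change (log2 units) over the genes of each list in each of the 6 lines, with the number of genes measured in brackets. The T-box members are at 0.88 to 0.98 in the mock and mutant lines and at 0.28 to 0.29 in the WT lines, and the medians of all genes lie near 0 in every line.

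Genes that work with these factors in the heart were called in part. Of 16 cardiac genes, 4 rose in the mutant lines and 0 fell, where 4.91% of all genes were called higher and 1.55% lower. *Myh6* (alpha myosin heavy chain) rose by 2.25 (limma adjusted p = 0.00405) and *Isl1* (second heart field factor) by 1.22 (adjusted p = 0.0105). *Myl7* (atrial myosin light chain) rose by 0.86 (adjusted p = 0.0210) and *Gata6* by 0.52 (adjusted p = 0.0297). *Isl1* differed by -0.07 and 0.01 in WT #1 and #3, whereas *Myh6* was also higher in both (1.00 and 0.76). *Nkx2-5* and *Gata4*, cofactors of *Tbx5* and *Tbx20*, had differences of 0.23 and -0.19 that did not pass (limma adjusted p = 0.456 and 0.581). The median over the 16 was 0.30 in the mutant lines and 0.08 in the WT lines. In mock cells *Gata6*, *Isl1* and *Myh6* were called, by 1.80, 2.16 and 1.27, beside 1.29% of all genes called higher and 0.383% lower there. Of 6 cardiomyocyte markers the 2 called were again *Myh6* and *Myl7*, and the summed signal of the 6 was 285 to 388 without OHT and 298 to 618 with it.

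Of 20 genes of pharyngeal, limb and skeletal development, 18 were measured, with a median of 0.65 in the mutant lines against 0.15 in the WT lines. Beside 4.91% of all genes called higher and 1.55% lower, 7 of the 18 rose in the mutant lines and 0 fell. They were the forkhead genes *Foxc2* (1.87) and *Foxc1* (0.96), the ligand *Fgf8* (1.48), *Ripply3* (1.45), whose product represses *Tbx1* activity in the pharynx, the hindlimb factor *Pitx1* (1.35), *Shox2* (1.14) and *Six2* (0.88), with limma adjusted p-values from 0.00617 to 0.0417. *Foxc2* was also higher in WT #1 and #3 (1.41 and 0.93), and *Shox2* was lower in both (-0.48 and -0.16). The other called genes were above 0 in both WT lines as well. *Ripply3* had 0.20 and 1.28 in WT #1 and #3, and *Pitx1* had 0.34 and 1.15. *Fgf8* had 0.26 and 0.64, *Six2* 0.10 and 0.59, and *Foxc1* 0.10 and 0.54. *Fgf10*, a limb and lung ligand downstream of *Tbx4* and *Tbx5*, had -0.22 in the mutant lines (limma adjusted p = 0.704). In mock cells, where 1.29% of all genes were called higher and 0.383% lower, 1 was called, *Foxc2* (2.07). Among the ESC markers, *Klf4* alone was called in the mutant lines (0.55, limma adjusted p = 0.0354), and the median of the 8 was -0.23.

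Of 12 nearest measured neighbours that are not members (order from assembly GRCm38.p6), 0 were called in the mutant lines by limma, with differences of -0.22 to 0.52; with 4.91% of all genes called higher and 1.55% lower, this count is near the background. Beside *Tbx1* these were *Gnb1l* (0.08) and *Gp1bb* (0.52, limma adjusted p = 0.0805), and beside *Tbx18* *Cep162* (0.19) and *Nt5e* (-0.02). *Cypt4*, beside *Tbx20*, was called in mock cells at -1.27 (limma adjusted p = 0.0498). In the pair *Tbx2* and *Tbx4* one member rose and its neighbour was near or under the filter, and in the pair *Tbx3* and *Tbx5* neither was called.

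Over the 12 arrays the members varied together in part. Pearson's r was 0.94 between *Tbx1* and *Tbx18*, 0.92 between *Tbx15* and *Tbx18*, and 0.90 between *Tbx1* and *Tbx4*, and it was 0.19 between *Tbx1* and *Tbx5*. The 3 genes outside the family with the highest r to *Tbx1* were *Irx2*, *Hoxd1* and *Sfrp2* (all 0.98), and those for *Tbx18* were *Zic1*, *Zbtb16* and *Otx1* (0.97 to 0.98). For *Tbx4* they were *Id2* (0.96), 2510009E07Rik and *Arhgef16*, for *Tbx20* 8030474K03Rik (0.98), *Hpse* and *Poldip3*, and for *Tbx15* *Stbd1*, *Flt1* and *Gng10*. *Tbx3* was closest to *Arrdc4* (0.93), *Klf4* (0.92) and *Itga6* (0.92). These values describe 12 arrays that share lines, OHT treatment and normalization, and the arrays are not independent.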

How the data were processed

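Total RNA of 12 samples was hybridised to Affymetrix mouse arrays. The deposited values are log2 signals by the authors for each probe set. The submitters' processing notes name Affymetrix Expression Console and RMA, for which no version was found in the labels, whereas the supporting methods describe MAS5 and quantile normalization. Array medians as deposited ran from 4.66 to 5.69, so the values were quantile normalized here. Of 45101 probe sets, 64 controls were left out. Probe sets whose highest signal exceeded 3.94, the 30th percentile, were kept (37446), and those with 1 symbol were averaged per gene (16432 genes). Genes were fitted in R 4.3.3 with limma 3.58.1 (two-sided, 3 residual and 2.79 prior degrees of freedom), fitting a block for each line and separate OHT effects of the mock, WT and mutant classes. The mock class is 1 line, assumed to vary like the others. Benjamini-Hochberg adjustment ran over all genes or over all probe sets, with calls under 0.05. Array pairs of a line deviated together from their class means (r 0.27 for WT and 0.36 to 0.43 for mutant lines). The arrays before OHT were fitted by class alone. All 8 members and every called gene of the lists are named. The members and the lists were chosen with earlier results of these data known. Alternatives were values as deposited, median centring, the brightest probe set per gene, no filter or a median filter, robust trended priors, only the I53S lines as mutants, no block, and each line left out. The number of arrays limits the precision.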

Additional observations from a re-analysis of the deposited data

How the results depend on the processing

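*Tbx1* and *Tbx4* kept their call in the mutant lines under all 14 alternatives. The count of members called for mutant minus WT was 2 in place of 0 with the filter at the median signal and 2 with trended and robust priors; for mock minus WT it was 2 with trended and robust priors. All-gene calls there rose from 0 to 42 higher and 5 lower, 194 and 78, and 276 and 177. Over the runs that left out 1 line each, the members called ranged from 2 to 4 in the mutant lines and stayed at 0 in mock cells, and the probe sets called ranged from 0 to 6. Leaving out a WT or mutant line also leaves fewer residual degrees of freedom. Without the replicate block, which pairs the 2 arrays of a line, 4 members were called in the mutant lines (*Tbx15* gained, limma adjusted p = 0.0363; *Tbx20* lost, adjusted p = 0.0997), 2 in mock cells (*Tbx20* lost, adjusted p = 0.159), and 486 genes rose and 77 fell. With values as deposited the median of all genes was -0.13 in the mutant lines and -0.34 in mock cells, and *Tbx20* was 0.72 in the mutant lines (limma adjusted p = 0.0531). With the brightest probe set per gene 6 members were called in the mutant lines, *Tbx3* (0.66) and *Tbx15* (1.40) among them, and 2 in mock cells, beside 911 genes higher and 264 lower and 200 and 63.

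The sign changed only for values that no setting called; the cause was not tested. *Tbx15* in the WT lines was 0.0098 as deposited, 0.030 with median centring and 0.21 with the brightest probe set or the median filter. Mutant minus WT was -0.13 as deposited and -0.018 with median centring for *Tbx5*, and -0.034 for *Tbx2* with the I53S lines alone. Mock minus WT for *Tbx2* was -0.0083 as deposited. With 1 line left out, the WT change ranged from -0.011 to 0.14 for *Tbx3*, -0.042 to 0.42 for *Tbx5*, -0.32 to 0.31 for *Tbx15* and -0.050 to 0.26 for *Tbx18*, and mutant minus WT ranged from -0.23 to 0.23 for *Tbx5* and -0.056 to 0.52 for *Tbx2*. *Tbx2* and the dimmer probe sets of *Tbx4*, *Tbx5*, *Tbx15*, *Tbx18* and *Tbx20* lay at or near the filter on untreated arrays, which limits what their changes can show. The same holds in some lines for *Tbx4* 1456033_at and *Tbx20* 1453351_at.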
